A study of Mus musculus with 6 samples.

Results

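Sox4, Sox11 and Sox12 are the 3 SoxC genes of the mouse, and they are the members here, out of 11023 genes named on these arrays. Of the 21888 probes, 13 carried one of their symbols as the only gene symbol in the platform annotation. They were 2 probes of Sox4, 10 of Sox11 and 1 of Sox12, and all 13 had enough values to be tested. The RNA came from embryonic pancreas at embryonic day 12.5, dissected from embryos homozygous for a deletion of Sox4 (Sox4-/-) and from their wild-type littermates. All 6 arrays were spotted arrays that compared these RNAs directly, with the knockout RNA in channel 2 and the wild-type RNA in channel 1. Per the label of arrays 1 and 2, the pancreases were combined into 2 pools before extraction, and a linear amplification and indirect labelling followed. One pool per genotype may therefore lie behind every array, and each p-value below is measured against array-to-array spread only, which may be technical.

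SoxC proteins are transcription factors that bind DNA through an HMG box and activate genes through a C-terminal domain. They are expressed in immature cells of many organs, often together, and are known for their roles in neuronal and cardiac development. In the embryonic pancreas, Sox4 is known for its part in the formation of endocrine cells. The study asked, per the labels, how loss of Sox4 alters gene expression genome-wide, and the 3 genes here are the targeted gene itself and its closest relatives.

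The deposited values are log2 ratios, read here as knockout over wild type. That direction is only likely, because it rests on the channel order and the sample titles. A ratio gives no level, so how strongly each gene was expressed, and whether pancreas markers were present at all, cannot be read from these data. The arrays held 20234 to 21449 values each, with medians of -0.007 to 0.198, and were centred on those medians. Arrays 1 and 2 ranked the probes more like each other (Spearman's rho 0.52) than like arrays 3 to 6 (0.05 to 0.32), which resembled one another (0.44 to 0.58). These correlations are across probes, which are not independent replicates. Of 21247 probes tested with limma, 1166 passed at an adjusted p of 0.05, of which 416 had means above 0 and 750 had means under 0. Without centring these counts were 849 and 409.

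Sox4, the gene that the knockout embryos lack, gave ratios close to 0 at both of its probes. The probe MMC02H11 had log2 ratios of -0.16, 0.41, -0.35, 0.013, -0.007 and -0.058 on arrays 1 to 6. Array 2 was the highest and array 3 the lowest, and the other arrays lay close to 0. Its mean was -0.03 ± 0.25 (SD, n = 6 arrays), with a limma adjusted p of 0.892 and a 95% interval of -0.27 to 0.22. The probe MMC03H11 had ratios of -0.062, -0.0315, -0.35, -0.009, -0.10 and 0.002 on the same arrays. Array 3 was again the lowest, and it stood apart from the rest. The mean of this probe was -0.09 ± 0.13 (SD, n = 6 arrays), with a limma adjusted p of 0.446 and a 95% interval of -0.26 to 0.08. Without median centring both means were above 0, at 0.08 and 0.012. The sources used here do not place these probes inside or outside the deleted part, so they do not check the labels. Each RNA is therefore named by its label below.

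Both Sox4 probes were annotated with the same GenBank mRNA. Their names, read as source plate and well, place them in well H11 of plate 02 and of plate 03. MMC02H11 differed from MMC03H11 by -0.093, 0.44, -0.004, 0.022, 0.094 and -0.06 on arrays 1 to 6. Array 2 was the only one with a difference over 0.1 in size. The mean difference was 0.07 ± 0.19 (SD, n = 6 arrays), with a two-sided exact sign-flip permutation p of 0.594.

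The Sox12 probe, ZX-00128A19, also stayed near 0. Its log2 ratios were 0.022, -0.41, 0.33, 0.034, 0.012 and -0.10 on arrays 1 to 6. Array 2 was low, array 3 was high, and 4 arrays were above 0 and 2 under it. The mean was -0.02 ± 0.24 (SD, n = 6 arrays), with a limma adjusted p of 0.919 and a 95% interval of -0.26 to 0.22. Without centring it was 0.08, so its side of 0 was not settled.

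**Figure D1:**
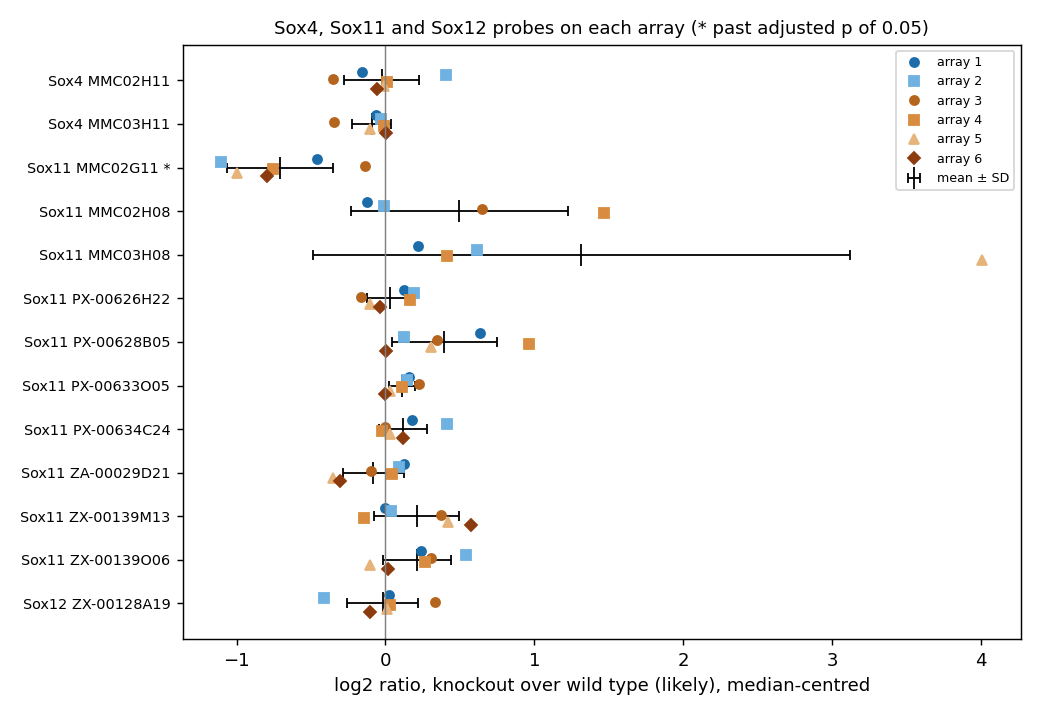
Log2 ratios of the 13 probes of Sox4, Sox11 and Sox12 (one row each) on arrays 1 to 6, knockout over wild type (likely), after median centring. Points are arrays and black bars the mean ± SD. The Sox4 and Sox12 means lie between -0.09 and -0.02, while the Sox11 means run from -0.71 to 1.32.

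Sox11, which is widely expressed in embryonic neurons and mesenchyme, gave no single answer across its 10 probes. One probe was past the threshold with a mean under 0, and none was past it with a mean above 0. That is 1 of 13 SoxC probes, against 5.49% of all tested probes, so the count for the family is close to the background. At an unadjusted p under 0.05 there were 2 SoxC probes, against 27.6% of all tested probes. Means were above 0 at 8 of the 10 Sox11 probes, against 11401 of all 21247 tested probes. The median of the Sox11 means was 0.16, against 0.03 over all tested probes. These 10 probes measure 1 gene on the same arrays and are not independent.

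The probe past the threshold was MMC02G11, one of 3 Sox11 probes annotated with the same RefSeq transcript. It had log2 ratios of -0.46, -1.10, -0.14, -0.76, -0.99 and -0.80 on arrays 1 to 6. All 6 arrays were under 0 after centring, with array 3 the nearest to it. The probe had a deposited value of 0 on array 3, which fell under 0 only by centring. Its mean was -0.71 ± 0.36 (SD, n = 6 arrays), a 1.63-fold lower ratio in the RNA labelled knockout, with a limma adjusted p of 0.0409 and a 95% interval of -1.03 to -0.39. It was not past the threshold when any 1 array was left out, with means of -0.82 to -0.63 and limma adjusted p of 0.0556 to 0.109. In these fits 10 to 1072 of all probes passed, against 1166 with every array. Without centring the mean was -0.61 with an adjusted p of 0.0502.

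The other RefSeq transcript probes of Sox11 had usable values on 4 arrays each, and both had means above 0. MMC02H08 had log2 ratios of -0.12, -0.0075, 0.65 and 1.47 on arrays 1 to 4 and no value on arrays 5 and 6. Arrays 1 and 2 were just under 0 and arrays 3 and 4 above it. Its mean was 0.50 ± 0.73 (SD, n = 4 arrays), with a limma adjusted p of 0.337. It was 0.17 without array 4 and 0.85 with array weights.

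MMC03H08 had ratios of 0.22, 0.62, 0.41 and 4.01 on arrays 1, 2, 4 and 5. Array 5 was far above the others, and the mean of 1.32 ± 1.80 (SD, n = 4 arrays; limma adjusted p 0.297) rests on it. Without array 5 it was 0.42 ± 0.20 (SD, n = 3 arrays). Array 3 held the ceiling value of 16.61, taken as missing, and with that value kept the mean was 4.34 on 5 arrays. These probes sit in well H08 of plates 02 and 03. They differed by -0.82, plate 02 minus plate 03, in the means of the arrays each was measured on. Over arrays 1, 2 and 4, which both have, the means were 0.45 and 0.42 and the mean difference was 0.029. MMC02H08 was lower on arrays 1 and 2 and higher on array 4, at 1.47 against 0.41, and the median difference was -0.34. The probes were therefore unlike on single arrays, and their order was not settled.

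The 7 Sox11 probes annotated with separate cDNA clones formed a narrower group, with means from -0.08 to 0.40 and a median of 0.12, and none was past the threshold. The highest was PX-00628B05, with log2 ratios of 0.64, 0.12, 0.35, 0.97, 0.31 and 0.005 on arrays 1 to 6. All 6 arrays were above 0, though array 6 only just. Its mean was 0.40 ± 0.35 (SD, n = 6 arrays), with a limma adjusted p of 0.121. Across all probes with 6 values, 22.3% had every array on 1 side of 0.

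ZX-00139O06 had ratios of 0.24, 0.54, 0.30, 0.27, -0.10 and 0.015, and ZX-00139M13 had -0.002, 0.04, 0.37, -0.15, 0.42 and 0.58. Both averaged 0.21, with SDs of 0.23 and 0.28 over 6 arrays, yet they were high on different arrays. ZX-00139O06 stood highest on array 2, while ZX-00139M13 was highest on array 6. Their limma adjusted p were 0.214 and 0.275.

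PX-00634C24 and PX-00633O05 averaged 0.12 ± 0.16 and 0.11 ± 0.08 (SD, n = 6 arrays). PX-00633O05 was the steadiest of all SoxC probes, at 0.16, 0.14, 0.23, 0.11, 0.03 and -0.003 on arrays 1 to 6. PX-00626H22 averaged 0.03 ± 0.15, with 3 arrays on each side of 0. ZA-00029D21 was the only clone probe with a mean under 0, at -0.08 ± 0.21, and it was lowest on arrays 5 and 6, at -0.35 and -0.31. Without centring its mean was 0.02.

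Probes of Sox11 were compared with one another on the same arrays. The 28 Sox11 pairs with values on all 6 arrays and the Sox4 pair gave 29 pairs. MMC02G11 was lower than 6 of the 7 clone probes on every array, by means of 0.63 to 1.11, each with a two-sided exact sign-flip permutation p of 0.0312, the smallest that 6 arrays allow. Against PX-00626H22 it was lower on 5 of 6 arrays, with an exact p of 0.0625. Among the 21 pairs of clone probes, 4 had every array on 1 side. After Benjamini-Hochberg adjustment over the 29 pairs the smallest p was 0.0906, so 0 pairs passed, against 10 at an unadjusted p under 0.05. The smallest possible exact sign-flip p, 0.0312, can pass this adjustment only if most of the 29 pairs reach it. The adjusted count therefore cannot show whether the probes agree or differ.

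The means of the Sox11 probes spanned 2.02 on the log2 scale. Among 41 genes with 8 to 12 tested probes the median span was 0.70, and none spanned more than Sox11. The span was 1.20 without MMC03H08, and 5 of the 40 other genes then spanned more. The interquartile range of the Sox11 means was 0.30, against a median of 0.21 for those 41 genes, and 10 of them had a larger one. These are descriptions of 1 set of arrays and were not tested.

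The place of the probes on their source plates was read from their names. In well order, the probe before MMC02G11 was that of Neurog1, a bHLH factor of sensory neurons. The Neurog1 probe, MMC02G10, had log2 ratios of -0.70, -1.15, 0.53, -0.75, -0.89 and -0.97 on arrays 1 to 6. The Sox11 probe lay within 0.24 of it on 5 of 6 arrays, and on array 3 Neurog1 was above 0 while Sox11 was not. Sox11 minus Neurog1 averaged -0.06 ± 0.33 (SD, n = 6 arrays). The Neurog1 mean of -0.65 ± 0.60 was not past the threshold, with a limma adjusted p of 0.116.

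The other named wells within 2 of MMC02G11 held Nr2f1, Numbl and Nkx6-1, with means of 0.08, -1.16 (n = 5) and 0.39. The Numbl mean rests on -4.40 on array 2 and was -0.36 without it. Of 92 tested probes on plate 02, 10 were past the threshold with a mean under 0 and none with a mean above 0, or 9 without the Sox11 probe. Over all tested probes 3.53% passed under 0. On plate 02 the median of the means was -0.15. Plate 03 had 74 tested probes, 1 past the threshold, above 0, and a median of 0.16. The part of plate position in the Sox11 value was not tested.

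**Figure D2:**
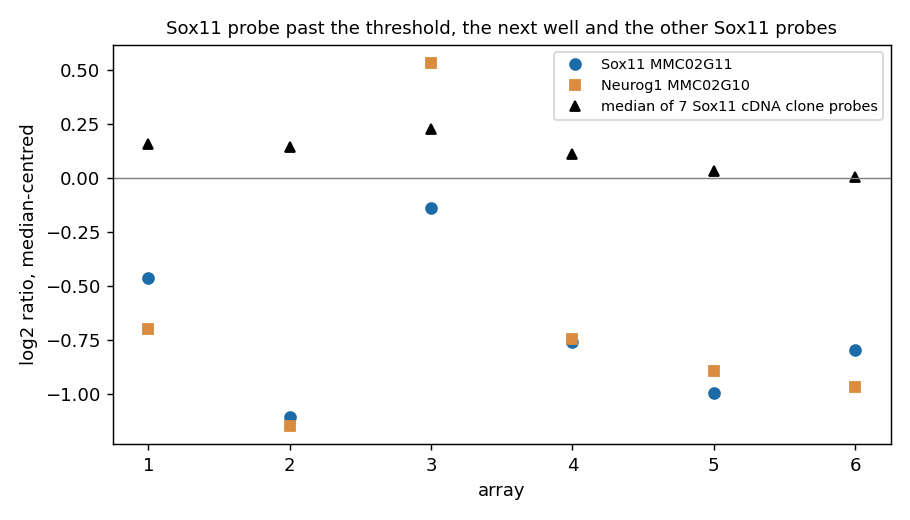
Median-centred log2 ratios by array (horizontal axis, arrays 1 to 6) of the Sox11 probe MMC02G11, of Neurog1 in the well before it, and of the median of the 7 Sox11 cDNA clone probes. The Sox11 and Neurog1 points lie within 0.24 of each other on 5 of 6 arrays, and the clone median is above 0 on each array, from 0.005 to 0.23.

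Row H of plates 02 and 03 carried the same gene in each of 11 wells, H01 to H11, though whether the spotted sequences were the same is not stated. Over the arrays that both probes of a well have, the median size of the difference between plates was 0.34. Sox4 in H11 differed by a mean of 0.07 on 6 arrays. Sox11 in H08 differed by a mean of 0.029 on 3 arrays, with differences of both signs among them. Its median difference was -0.34, plate 02 minus plate 03. The well before Sox4, H10, was that of Nkx6-2, with means of 0.45 on plate 02 and 1.02 on plate 03. The second of these rests on 3.65 on array 1 and was 0.49 without it.

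**Figure D3:**
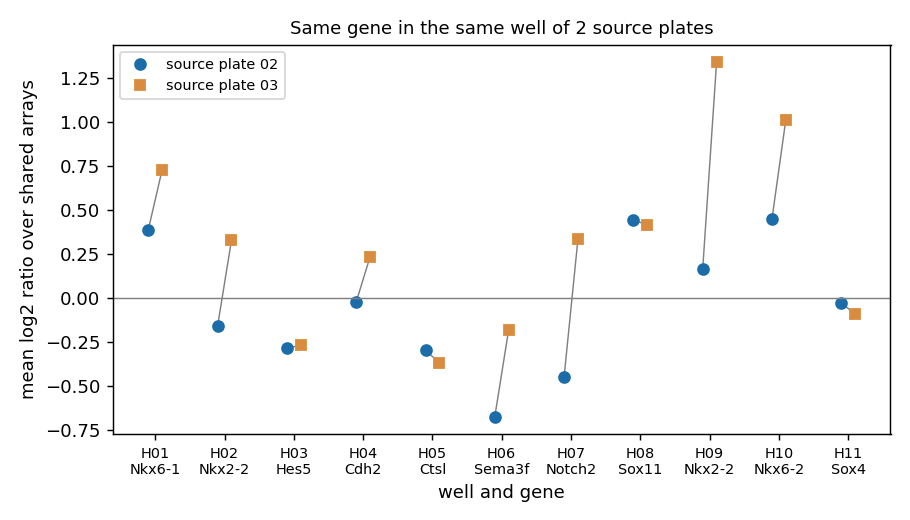
Mean log2 ratio over the arrays on which both probes have a value (vertical axis) for 11 wells that carried the same gene on source plates 02 and 03 (horizontal axis). Grey lines join the wells. Sox4 in H11 lies near 0 on both plates, and Sox11 in H08 stands at 0.45 on plate 02 and 0.42 on plate 03, over 3 arrays. The Sox11 difference had both signs among those arrays.

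Some array ratios on this platform are quotients of small whole numbers. Among all tested values, 22.6% were quotients of whole numbers up to 20 within 6e-04 in log2, against 11.2% of the same values after a shift. Of the 74 values of the SoxC probes, 9.46% were, no more than among the shifted values. They included 1 of 6 values of MMC02G11, that of array 3, and 3 of 6 values of PX-00628B05. With such values set to missing, MMC02G11 had a mean of -0.82 on 5 arrays with a limma adjusted p of 0.0172. The value removed from this probe was the deposited 0 of array 3, its nearest to 0, so a mean farther from 0 follows from the removal. With array 3 left out for all probes the mean was also -0.82, with a limma adjusted p of 0.0614.

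None of the 13 probes differed between arrays 1 and 2 and arrays 3 to 6 after limma adjustment over all probes, and neither did any other probe (0% of 21230, with 3273 probes, 1 of them SoxC, at an unadjusted p under 0.05). The smallest adjusted p among the 13 was 0.318, for MMC02H08, with means of -0.06 on arrays 1 and 2 and 1.06 on arrays 3 and 4, at an unadjusted p of 0.0326. MMC02G11 stood at -0.78 on arrays 1 and 2 and -0.67 on arrays 3 to 6. With arrays 3 to 6 alone its adjusted p was 0.0873, and with the array set as a term it was 0.0576.

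For each of 4 SoxC probes, the 3 probes of other genes with the highest Pearson's r were taken from 15547 to 15554 candidates. With so many candidates and 6 arrays, a high r follows from the choice itself, and no p is given. MMC02H11 of Sox4 was nearest to probes of Cdk5rap1, Tbrg4 and Entpd7, and MMC03H11 to Ptchd3, Slc6a20b and Foxk2. The Sox12 probe was nearest to 2510009E07Rik, Arpc5 and Cyld, and MMC02G11 of Sox11 to Ndufa12, Tecr and Mis18a. All these r lay between 0.990 and 0.998 over 6 arrays.

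Genes described as SoxC targets, or as proteins that bind SoxC factors, were then read from the same fit. Of 13 genes listed, 7 were on the array, with 17 probes, of which 16 were tested. Of these, 2 were past the threshold above 0 and 2 under 0, against 1.96% and 3.53% of all tested probes. The list was chosen with earlier results of these data known, and several of its probes share a gene. These counts are therefore descriptions and not a test. Without centring 4 passed above 0 and 1 under 0, and 3 of these were among the first 4. With 1 value per gene none passed above 0 and 2 under 0, Neurog3 and Sdcbp. The median of the 17 means was 0.02, against 0.03 over all tested probes. With array 1, 3, 4, 5 or 6 left out none of the 16 passed by limma (8 to 10 at an unadjusted p under 0.05), and without array 2 there were 3. Few probes of any kind passed in the first 5 fits, 10 to 45 of 20425 to 20893 tested. In those fits 4678 to 5074 of all probes had an unadjusted p under 0.05. Without array 2, 1072 of all probes passed.

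The promoters of Neurog3 and Tubb3 are shown because probes of these genes passed on opposite sides of 0. The sequences are the 250 bases before the RefSeq start in GRCm38.p6, 5′ to 3′ on the plus strand, with matches to the HMG box cores ACAAAG and ACAATG, searched on both strands, in capitals. Neurog3 is from chr10:62132840-62133089 and Tubb3 from chr8:123411303-123411552.
Neurog3: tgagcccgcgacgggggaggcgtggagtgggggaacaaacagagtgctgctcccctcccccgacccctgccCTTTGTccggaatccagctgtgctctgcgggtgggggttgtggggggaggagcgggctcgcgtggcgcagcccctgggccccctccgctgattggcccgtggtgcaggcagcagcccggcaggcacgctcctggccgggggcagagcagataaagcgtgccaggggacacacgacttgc
Tubb3: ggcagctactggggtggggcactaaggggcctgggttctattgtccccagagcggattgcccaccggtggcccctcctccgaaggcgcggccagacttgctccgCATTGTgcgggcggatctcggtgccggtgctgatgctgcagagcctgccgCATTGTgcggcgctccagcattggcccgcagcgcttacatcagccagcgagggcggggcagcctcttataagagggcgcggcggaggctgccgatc
Neurog3 held 1 match, to ACAAAG on the minus strand, whose first base lay 179 bases before the start. Tubb3 held 2 matches to ACAATG on the minus strand, at 146 and 96 bases. Of all 32851 promoters of this length, 16.5% held ACAAAG, 10.7% ACAATG and 25.2% either. The windows of Sox4, Sox11, Sox12, Neurod1 and Pou3f2 held neither core. Dcx promoter 1 held neither, and Dcx promoter 2 held 1 match, to ACAAAG. The lack of a match says only that these letters are not in the window.

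Neurog3, the bHLH factor that starts the endocrine programme, was under 0 at both of its probes. ZX-00126H08 had log2 ratios of -0.51, -0.62, -1.01, -0.79, -0.76 and -0.67 on arrays 1 to 6. Every array was under 0, with array 3 the lowest. Its mean was -0.73 ± 0.17 (SD, n = 6 arrays; limma adjusted p 0.0203), and with any 1 array left out the mean was -0.77 to -0.67 and the adjusted p 0.0313 to 0.0804. It passed only without array 2. MMC02E09, on the same source plate as the Sox11 probe MMC02G11, averaged -0.32 ± 0.33 with a limma adjusted p of 0.164.

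The 3 probes of Neurod1, a bHLH factor of endocrine cells and neurons, averaged -0.39, -0.53 and -0.26. They did not pass, and the smallest limma adjusted p was 0.101. Of the values of its lowest probe, 83.3% were quotients of small whole numbers.

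Tubb3, the neuronal beta-tubulin, had log2 ratios of 0.49, 0.27, 0.38, 0.33, 0.41 and 0.43 at the probe PX-00634M05. All 6 arrays were above 0 and close together. The mean was 0.39 ± 0.08 (SD, n = 6 arrays; limma adjusted p 0.0326), with an adjusted p of 0.0369 to 0.102 when any 1 array was left out, past the threshold only without array 2. The other Tubb3 probes averaged 0.34 ± 0.20 (limma adjusted p 0.0738) and -0.05 ± 0.20.

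Stmn1, a protein that destabilises microtubules, passed at 1 of 4 tested probes, with a mean of 0.38 ± 0.15 (SD, n = 6 arrays; limma adjusted p 0.0448). It passed in none of the fits with 1 array left out, where the adjusted p was 0.0581 to 0.119. Its other tested probes averaged 0.46, 0.22 and -0.11, and a further probe had values on 2 arrays and was not tested. Dcx, a microtubule-binding protein of young neurons, averaged 0.41 ± 0.22 (limma adjusted p 0.0579) and 0.02 ± 0.38.

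Sdcbp, or syntenin, a PDZ protein that binds SOX4 in human cells, had ratios of -0.32, -0.37, -0.32, -0.24, -0.42 and -0.34. These were among the tightest values seen here. The mean was -0.34 ± 0.06 (SD, n = 6 arrays; limma adjusted p 0.0368), and it passed only without array 2 when 1 array was left out, with adjusted p of 0.0430 to 0.110. Without centring its adjusted p was 0.0652. Pou3f2, a POU factor that acts beside SoxC proteins in neural cells, averaged 0.31 ± 1.03, a mean that rests on 2.39 on array 5. Without that array it was -0.11 ± 0.17 (SD, n = 5 arrays).

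**Figure D4:**
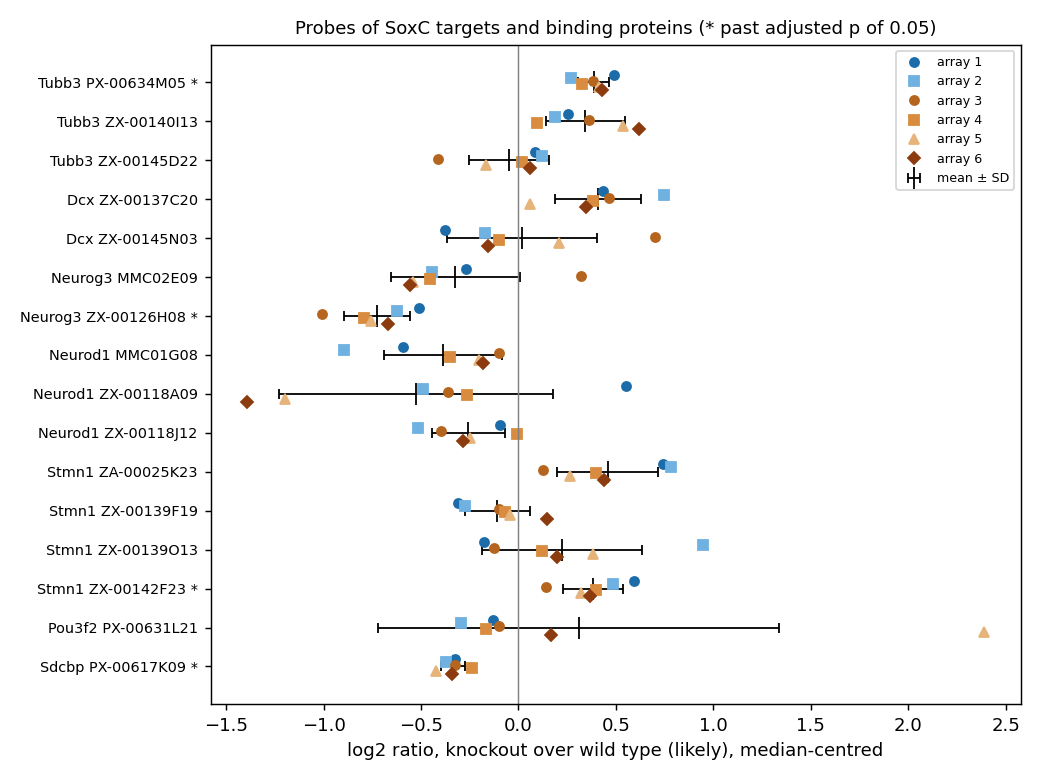
Median-centred log2 ratios (horizontal axis) of the 16 tested probes of SoxC targets and binding proteins on arrays 1 to 6, with black bars for the mean ± SD. Both Neurog3 means lie under 0, at -0.32 and -0.73, while the Tubb3 means run from -0.05 to 0.39.

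Markers of cell types that the dissected tissue could hold were read beside these genes, and a gene was counted as past the threshold if any 1 of its probes passed. The share of all genes that pass by that rule was not computed, so these counts have no background beside them. Of 8 neuron and neural crest markers, 4 were measured, with a median of 0.18, and 2 of these passed above 0 and 1 under 0. Those above 0 were Elavl4, at 1 of 4 tested probes, and Tubb3, at 1 of 3. The gene under 0 was Ncam1, at 2 of 2, with means of -0.44 and -0.38. Of 5 endocrine markers, 4 were measured, with a median of -0.16. Ins2 passed above 0 at 2 of 3 tested probes and Neurog3 under 0 at 1 of 2, while Neurod1 and Gcg did not pass. Of 6 liver markers, 5 were measured and 3 passed under 0, with a median of -1.02 and medians of -1.20 to -0.57 on single arrays. Those under 0 were Afp, at 3 of 4 tested probes, Fgb, at 2 of 2, and Fgg, at 1 of 1. The Afp probe means ran from -2.06 to 0.006. Alb, with a mean of -0.29, and Ttr, with means of -0.21 and -0.18, did not pass. Of 6 mesenchyme markers, 5 were measured, with a median of 0.07 and 1 gene past the threshold under 0. In pooled tissue, fewer cells of a type and less RNA per cell cannot be told apart, and the part of cell composition in the Neurog3 and Tubb3 ratios was not tested.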

How the data were processed

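The authors deposited 1 table of log2 ratios of the 2 channels for 6 arrays. Per the labels, wild-type RNA was in channel 1 and knockout RNA in channel 2 on every array, so channel bias of a probe and a difference of its RNA cannot be told apart. The sources used here do not give the dyes, the direction of the ratio, the scanner or any background correction and normalization. The value 16.61, log2 of 100000, occurred 40 to 257 times per array and was treated as missing. Arrays were median-centred, and probes with values on at least 4 arrays were fitted with limma 3.58.1 in R 4.3.3 (lmFit and eBayes, intercept only, two-sided, Benjamini-Hochberg over all probes, threshold 0.05). A simulation drew independent normal noise with the SD of each of 21247 probes, 200 of them changed. The fit recovered 28.4%, 62.7% and 78.8% of log2 changes of 0.5, 1 and 2, with 8 calls among the other probes. The simulation held no array sets, outlying values or shared pools, so these rates need not hold for the real arrays. Signal over background is unknown, and the number of arrays limits the precision.

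Gene symbols came from the platform annotation, updated by Entrez ID for 17786 of the 18388 probes with 1 symbol. Another 66 had several symbols and 3434 none. Promoters came from RefSeq (GRCm38.p6), with entries for 8 of 10 genes. The text names every SoxC probe, every measured gene of the target and partner list, named wells up to 2 from a SoxC probe where the text turns on them, and the 3 probes most like each of 4 SoxC probes. The members and lists were chosen with earlier results of these data known. The pancreatic marker list had 1 gene past the threshold under 0 of 5 measured, Cpa1, at 3 of 3 tested probes. The endocrine list had 1 on each side of 4, Ins2 above 0 and Neurog3 under 0. The erythroid list had 1 above 0 of 3, Hba-a1, at 1 of its 17 tested probes. A gene counted as past the threshold if any 1 of its probes passed. Figures were drawn with matplotlib 3.10.9. Alternatives were no centring, other normalizations, other filters, array weights, robust eBayes, 1 value per gene, array sets and each array left out.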

Additional observations from a re-analysis of the deposited data

Results flagged for a closer look

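Each of the 29 SoxC, target and partner probes with at least 4 values was checked for an array whose distance from its nearest neighbour was large against the range of the probe. About 1 in 20 would be picked by chance if the values were normally distributed, and 4 of the 29 were. The share of all tested probes that this rule picks was not computed, so the count is not read as an excess. Array 3 stood apart low at the Sox4 probe MMC03H11, with -0.35 where the other arrays had -0.10 to 0.002. It stood apart high at MMC02E09 of Neurog3, with 0.32 where the others had -0.56 to -0.27. Array 5 stood apart high at MMC03H08 of Sox11, with 4.01 where the others had 0.22 to 0.62. It did so too at PX-00631L21 of Pou3f2, with 2.39 where the others had -0.29 to 0.16.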

How the results depend on the processing

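All probes past the threshold numbered 1166, and 1786 with scale normalization, 2752 with array weights, 694 with the array set as a term, 13 on arrays 3 to 6 alone and 619 genes with 1 value per gene. Without array 1, 2, 3, 4, 5 or 6 they numbered 18, 1072, 45, 11, 10 or 13. The 1 SoxC probe past the threshold, MMC02G11, was not past it without centring, on arrays 3 to 6 alone or with the array set as a term, nor with any 1 array left out, so each of these gave 0 SoxC probes by limma (1 to 5 at an unadjusted p under 0.05). With 1 value per gene 0 of the 3 SoxC genes passed, with 0 at an unadjusted p under 0.05, and Sox11 stood at 0.16. The 4 target and partner probes became 7 with quotients of small whole numbers missing, 0 on arrays 3 to 6 alone, 2 genes, both under 0, with 1 value per gene, and 0 to 3 with 1 array left out. Means that changed sign were those of MMC02H11 (0.078 without centring, 0.012 with the array set as a term), MMC03H11 (0.012 without centring), ZA-00029D21 (0.021 without centring), PX-00626H22 (-0.0355 on arrays 3 to 6 alone) and the Sox12 probe (0.084 without centring, 0.008 with array weights, 0.069 on arrays 3 to 6 alone). With 1 array left out, MMC02H11 ranged from -0.11 to 0.040, PX-00626H22 from -0.0036 to 0.067 and the Sox12 probe from -0.0895 to 0.059, and no other SoxC probe changed sign. The cause of these changes was not tested. Of 29 probe pairs, 10 had 1 sign on every array, and 10 to 12 with 1 array left out; 5 arrays cannot give an exact p under 0.0625. The span of the Sox11 means without MMC03H08, 1.20, was computed after seeing the data, as were the means without 1 distant array and the difference in well H08, -0.82 over each probe's own arrays and 0.029 over shared arrays. Each array is itself a ratio of both RNAs, so the fit against 0 compares them within arrays, and the arrays form 1 group.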
